A study of Mus musculus with 6 samples.

Results

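The transcription factor AP-1 is a dimer of a FOS and a JUN protein, and the genes described here are 10 of those that encode its subunits and their nearest relatives: Fos, Fosb, Fosl1 and Fosl2 of the FOS family, Jun, Junb and Jund of the JUN family, and Atf3, Batf3 and Jdp2, which encode short relatives that pair with JUN proteins. They were taken by symbol from the 51912 genes of the deposited table, and all 10 were found there. The list was drawn up with the CXCL3 result of Atf3 known, so the differences between the groups below describe these genes and are not independent evidence about them. RNA sequencing compared primary mouse fibroblasts treated with the chemokine CXCL3 for 48 h with control cells, in 3 libraries each, from mice aged 6 weeks. The labels give no genetic alteration, organ or strain, and neither the dose of CXCL3 nor what the controls received. Whether the libraries of a group came from different cultures or animals is not stated either, so p-values measure only the spread between these libraries, which may be technical.

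AP-1 subunits are basic leucine zipper proteins: the zipper joins 2 subunits and the basic region reads DNA. FOS proteins need a partner, usually a JUN protein, whereas JUN proteins also pair among themselves. Fos, Fosb and Jun are immediate early genes, which respond to growth factors and stress within minutes and usually fade again, whereas Fosl1 and Fosl2 follow later and stay on longer. ATF3 is induced by many kinds of stress and often acts as a repressor, as does JDP2. In fibroblasts AP-1 is known for its part in growth and in the expression of matrix-degrading enzymes.

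Of the 10 genes, 9 reached 1 TPM (a transcript's length-scaled share of its library) in 3 or more libraries and were tested. Batf3 fell below this filter. With limma over 13139 genes, 0 of the 9 passed an adjusted p of 0.05, where 0.16% of all genes tested did, and 1 of the 9, Atf3, had an unadjusted p under 0.05 (11.6% of all genes tested). The 3 CXCL3 libraries lay wholly above the 3 controls for 2 of the 9, Atf3 and Fosl1, and wholly below for 0 (17.2% of all genes tested had groups that did not overlap). The log2 fold change was positive for 4 and negative for 5, with a median of -0.034, where that of all genes tested was 0.070. Nothing is read from these shares, because the list was chosen on this contrast.

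Controls 2 and 3 stood apart from control 1 and from the CXCL3 libraries. In 4 of the 9 AP-1 genes tested (Fosl1, Fosl2, Jun and Jund) control 1 was the control nearest the CXCL3 mean. In Fos, Fosb, Junb, Atf3 and Jdp2 control 2 or 3 was nearer. On the first principal component (52.9% of the variance) controls 2 and 3 were at 36.6 and 26.6 and the other 4 libraries between -19.2 and -9.4. Long transcripts were relatively low in these 2 controls: across genes, Spearman's rho between transcript length and a library's departure from the 6-library mean was -0.502 in control 2 and -0.478 in control 3, against 0.199 to 0.45 elsewhere. Markers of other cell types were present and some moved with the groups. Of 10 fibroblast markers 8 had a mean of at least 1 TPM, Lum (0.06 to 0.5 TPM) and Fap (0.16 to 0.54 TPM) being the exceptions, but so did all 12 macrophage markers, with a summed level of 15491 to 18483 TPM in controls and 15112 to 15200 TPM with CXCL3. Most of that sum is Lyz2 (13115 to 16166 TPM). Of the 12, the groups did not overlap for 5 lower and 1 higher, Mrc1 (9.8 to 13.39 TPM in controls, 16.02 to 18.05 TPM with CXCL3), and overlapped for 6. Among all genes tested 9.31% were wholly lower and 7.92% wholly higher. Lyz2 counts among the 5 by a small margin (lowest control 13260 TPM, highest CXCL3 library 13244 TPM). Of the fibroblast markers 3 of 10 were wholly lower with CXCL3 and 0 wholly higher (9.31% and 7.92% of all genes tested). Among the 3 were Col3a1 (343.2 to 449.1 and 188.6 to 204.2 TPM) and Lum, which was near the floor. The summed level of 6 smooth muscle and pericyte markers was 1055 to 1168 TPM in controls and 669.0 to 687.7 TPM with CXCL3, nearly all of it Acta2. Of these 6, Acta2, Des and Notch3 had a mean of at least 1 TPM, while Rgs5, Cspg4 and Myh11 did not. The sum thus gives mostly the level of 1 gene. The summed level of the fibroblast markers overlapped between the groups (3614 to 5533 TPM in controls, 3956 to 4300 TPM with CXCL3). AP-1 genes are active in fibroblasts and macrophages alike, so each value is of the whole culture, in which fewer cells of a type and less RNA per cell cannot be told apart.

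**Figure D1:**
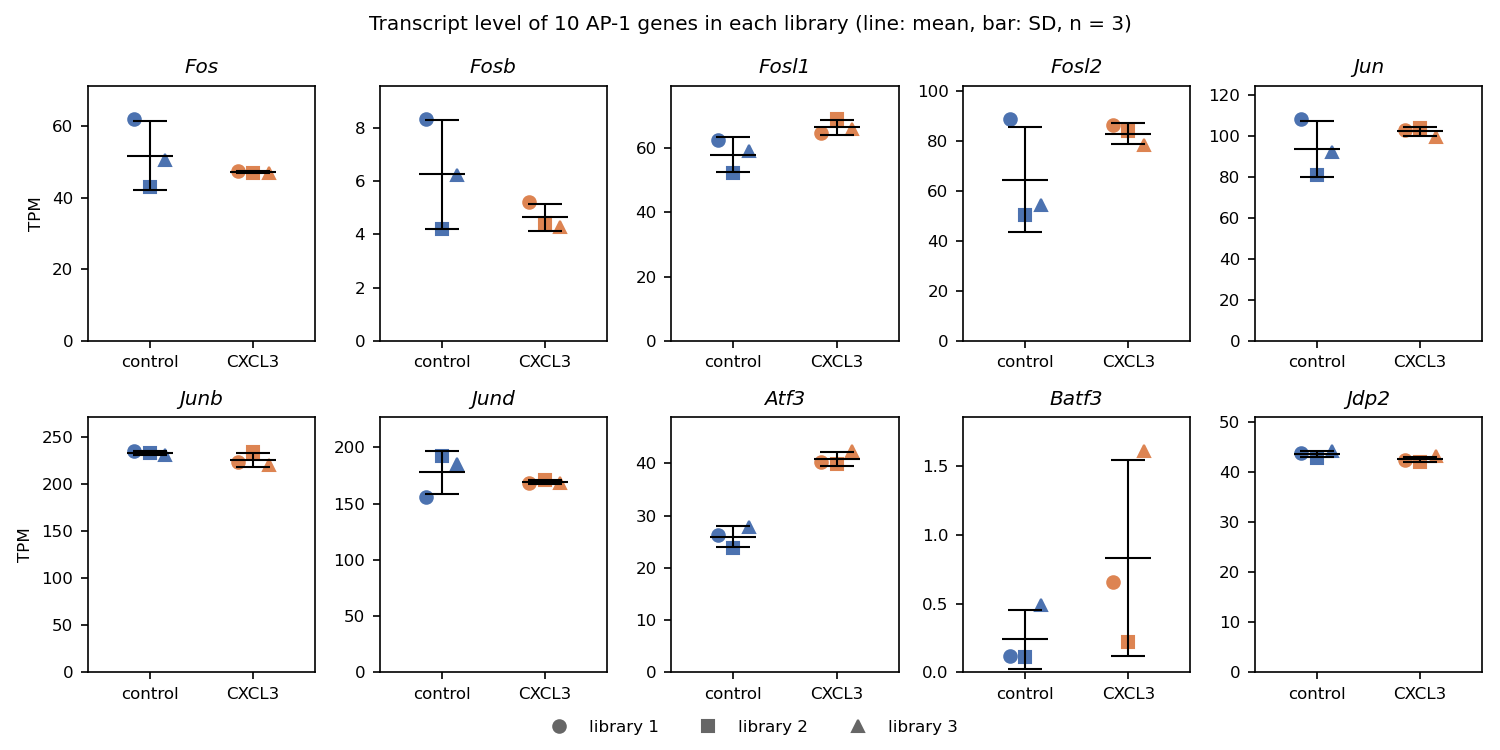
TPM of each of the 10 genes in the 3 control and 3 CXCL3 libraries, each panel with its own axis from 0. Points are libraries, horizontal lines are means and bars are SD (n = 3). Atf3 lies at 23.8 to 27.8 TPM in controls and 39.8 to 42.4 TPM with CXCL3, and Fosl2 in control 1 (88.8 TPM) lies with the CXCL3 libraries.

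The JUN family was the most abundant of the 3. Averaged over all 6 libraries, Junb was at 230.1 TPM and Jund at 173.5 TPM, and the ranges of the 6 libraries did not overlap between Junb, Jund and Jun (98.0 TPM). Below these came Fosl2 (73.8 TPM), Fosl1 (62.1 TPM), Fos (49.4 TPM), Jdp2 (43.1 TPM) and Atf3 (33.4 TPM), and from Jun to Atf3 each gene overlapped in range with the next. Fosb (5.45 TPM) and Batf3 (0.535 TPM) lay apart at the bottom. TPM is scaled by transcript length so that genes can be compared, but this order is approximate. The libraries still differed in their trend with length, and reads of Junb, Jun and Fosl1 may partly belong to opposite-strand genes.

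Atf3 had the largest fold change of log2(TPM + 1) among the 9 genes tested. Controls 1, 2 and 3 held 26.3, 23.84 and 27.81 TPM, and CXCL3 libraries 1, 2 and 3 held 40.36, 39.83 and 42.42 TPM. The lowest CXCL3 library was thus well above the highest control, and the divergent controls 2 and 3 lay on either side of control 1. The means were 26.0 ± 2.00 and 40.9 ± 1.37 TPM (SD, n = 3 each), a ratio of 1.57, and the log2 fold change of TPM + 1 was 0.64 ± 0.09 (SE; 95% interval 0.43 to 0.85; limma, adjusted p = 0.0757). The gene stood at rank 25 of 13139 by p. The fold change lay between 0.56 and 0.68 in all 17 alternative settings, and its adjusted p between 0.00538 and 0.481. It passed with limma without control 1 (0.65, adjusted p = 0.00538), where 32.4% of all genes did, and with library weights (0.62, 0.0196), where 11% did. It also passed after removal of the trend that each library showed with transcript length and GC content (0.67, 0.0237), where 0.342% did. Without controls 2 and 3, a fit with control 1 as the only control, the fold change was 0.62. Atf3 did not pass without control 3 (adjusted p = 0.215), without any 1 CXCL3 library (0.389 to 0.481), with eBayes without trend (0.162) or with median-of-ratios scaling (0.143). The part of the cell type markers in the values of Atf3 was not tested.

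Jdp2, which encodes the closest relative of ATF3 in the list, stayed within a narrow range. Its libraries held 43.74, 42.86 and 44.18 TPM in controls and 42.39, 42.11 and 43.12 TPM with CXCL3. The groups overlapped, and the log2 fold change was -0.034 (95% interval -0.20 to 0.13; limma, adjusted p = 0.818). The ratio of Atf3 to Jdp2 within a library lay between 0.556 and 0.630 in controls and between 0.946 and 0.984 with CXCL3. It mostly restates the values of Atf3, since those of Jdp2 hardly varied. The part of the cell types in this ratio was not tested. Batf3, known for its role in dendritic cells, had 0.12, 0.11 and 0.49 TPM in controls against 0.66, 0.22 and 1.61 TPM with CXCL3, and the groups overlapped. Of 8 dendritic cell markers, 2 had a mean of at least 1 TPM, H2-Ab1 (7.49 to 9.16 TPM) and Zbtb46 (1.13 to 2.07 TPM), and 2 (Flt3 and Cd209a) were listed at 0 in all 6 libraries. Atf3 made up 37.2% ± 1.37 of the TPM of these 3 genes in controls and 48.5% ± 0.147 with CXCL3 (SD, n = 3).

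Atf3 and Batf3 are neighbours on mouse chromosome 1 (GRCm38, GENCODE M21; Batf3 from 191097847 to 191108945, Atf3 from 191170296 to 191218039), with a gap of 61.4 kb that holds 1 protein-coding gene. Fos (85473890 to 85477273) and Jdp2 (85599027 to 85639878) are neighbours on chromosome 12, with 0 protein-coding genes in the 121.8 kb between them. Batf3 was at 0.535 TPM beside Atf3 at 33.4 TPM. Fos and Jdp2 overlapped in level but not in spread, as Fos varied over 42.9 to 61.9 TPM where Jdp2 varied over 42.1 to 44.2 TPM. RefSeq promoters (GRCm38.p6) were found for 9 members, all but Fosl1, in 11 windows of which Jdp2 has 3, and the 250 bases before each start were searched on both strands. The AP-1 site TGANTCA was in 0 of the 11 windows (6.75% of all 32841 RefSeq promoters hold it), as were the full CRE (cyclic AMP response element) TGACGTCA (1.55%) and the CArG box read by SRF (1.47%). The CRE-like form TNACNTCA, which includes the full CRE, was found for 3 members, Atf3, Jun and Jund (13.99% of all). The C/EBP-ATF element TGATGNAA, a form read by ATF4 with C/EBP proteins, was found for 2, Atf3 and Jdp2 (3.45% of all). The matches of Atf3, and those of Jdp2 and Jun for comparison, are shown 5′ to 3′ on the gene's strand with the motif in capitals.
Atf3, C/EBP-ATF element on the opposite strand, chr1:191183426-191183453 (-): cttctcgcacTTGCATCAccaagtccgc
Jdp2, C/EBP-ATF element, chr12:85599373-85599400 (+): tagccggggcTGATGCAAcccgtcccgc
Atf3, CRE-like site, chr1:191183326-191183353 (-): attaatagcaTTACGTCAgcctgggatt
Jun, CRE-like site, chr4:95052250-95052277 (-): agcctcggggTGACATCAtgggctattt
Jun, CRE-like site, chr4:95052369-95052396 (-): cagcggagcaTTACCTCAtcccgtgagc
The Atf3 sites begin 110 and 10 bases before the RefSeq start, the Jdp2 site 33 bases and the Jun sites 45 and 164 bases. RefSeq starts can differ from the GENCODE gene ends. The Atf3 window (191183284 to 191183583) lies inside the gene, and the bases before its GENCODE 5′ end at 191218039 were not searched. The Jund window (70697489 to 70697788) lies before the GENCODE start at 70698949. The C/EBP-ATF letters shared by Atf3 and Jdp2 were in 2 of the 11 windows, and not in every window of Jdp2. Any link between these letters and the CXCL3 values was not tested. A match describes letters, not binding, and sites with other letters or outside the 250 bases were not searched.

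The FOS family held 180.4 ± 37.0 TPM in controls and 201.0 ± 4.95 TPM with CXCL3 in sum, with overlapping groups. Fos itself had 61.9, 42.91 and 50.46 TPM in controls against 47.35, 46.94 and 46.88 TPM with CXCL3. The controls spanned all the CXCL3 values (log2 fold change -0.12, 95% interval -0.42 to 0.18; limma, adjusted p = 0.653). Fosb, its closest paralog, had 8.33, 4.21 and 6.23 TPM in controls against 5.22, 4.42 and 4.28 TPM with CXCL3 (-0.33, 95% interval -0.84 to 0.19; adjusted p = 0.508). In both genes control 1 was the highest of all 6 libraries and control 2 the lowest.

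Fosl1 encodes FRA-1, a FOS protein without the transactivation domain of FOS. It had 62.5, 52.02 and 59.03 TPM in controls against 64.47, 68.84 and 65.69 TPM with CXCL3. The groups did not overlap, but the gap between control 1 and CXCL3 library 1 was small beside the spread of the controls (log2 fold change 0.20 ± 0.09, 95% interval -0.009 to 0.40; limma, adjusted p = 0.437). Without controls 2 and 3 the fold change was 0.084. Fosl2, which encodes FRA-2, had 88.76, 50.46 and 54.53 TPM in controls against 86.58, 83.88 and 78.43 TPM with CXCL3. Control 1 was the highest library, and controls 2 and 3 were the lowest (0.40, 95% interval -0.056 to 0.86; adjusted p = 0.457). Its longest annotated transcript, of 6537 bases, is the longest of the 10 genes. Without control 1 the fold change was 0.65 (limma, adjusted p = 0.00437), without controls 2 and 3 it was -0.098, and with the length and GC trend removed 0.17 (adjusted p = 0.337).

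Within the FOS family as deposited, the groups did not overlap in the shares of 3 members and overlapped in that of Fosl1. The shares of a library add up to the whole family, so they are not separate outcomes. No background of such shares was computed. As TPM, the groups of Fos, Fosb and Fosl2 overlapped (17.2% of all genes tested had groups that did not). Fos contributed 27.9%, 28.7% and 29.6% of FOS-family TPM in controls 1, 2 and 3 and 23.3%, 23.0% and 24.0% with CXCL3. Fosl2 contributed 40.1%, 33.7% and 32.0% in controls and 42.5%, 41.1% and 40.2% with CXCL3. The groups did not overlap for either gene, though for Fosl2 control 1 nearly reached CXCL3 library 3. Fosb contributed 3.41% ± 0.520 in controls and 2.31% ± 0.223 with CXCL3, and its groups did not overlap. Fosl1 contributed 28.2%, 34.8% and 34.7% in controls and 31.7%, 33.7% and 33.6% with CXCL3. The ratio of Fosl1 to Fos within a library was 1.01, 1.21 and 1.17 in controls and 1.36, 1.47 and 1.40 with CXCL3, and that of Fosl2 to Fos 1.43, 1.18 and 1.08 against 1.83, 1.79 and 1.67. The ratio of Fosb to Fos overlapped between the groups (0.119 ± 0.0187 and 0.0986 ± 0.0102). With the length and GC trend removed, the groups stayed apart in both ratios (Fosl1 to Fos 1.13 ± 0.0882 and 1.41 ± 0.0524; Fosl2 to Fos 1.34 ± 0.0958 and 1.61 ± 0.0114). The same removal brought the mean shares of Fosl2 and Fos closer and moved those of Fosl1 and Fosb apart. Fosl2 came to 37.3% in controls and 39.1% with CXCL3 (35.3% and 41.3% as deposited). Its control 2 was then at 38.7% and CXCL3 library 2 at 38.8%. Fos came to 27.8% and 24.3% (28.8% and 23.4% as deposited), and Fosb to 3.50% and 2.26%. Fosl1 came to 31.4% and 34.3% (32.55% and 33.0% as deposited). Its groups then no longer overlapped (30.0% to 32.5% in controls, 33.4% to 35.1% with CXCL3). These shares and ratios were not tested, since they come from the contrast on which the list was chosen.

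**Figure D2:**
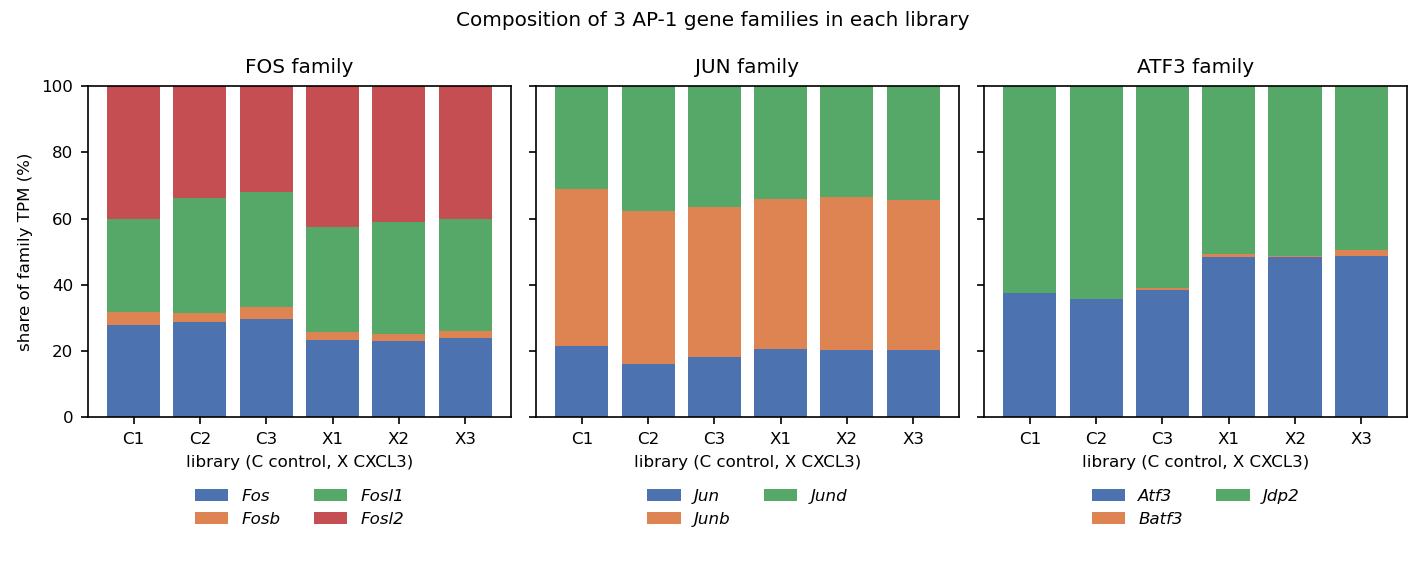
Share of each gene in the summed TPM of its family, as percent, stacked to 100 in each library (C1 to C3 control, X1 to X3 CXCL3). Atf3 holds 37.2% of the ATF3 family on average in controls and 48.5% with CXCL3, Fos 28.8% and 23.4% of the FOS family, and in the JUN family the groups overlap for all 3 genes.

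In the JUN family no gene separated the groups. Jun had 108.27, 80.96 and 92.12 TPM in controls against 102.91, 104.16 and 99.83 TPM with CXCL3 (log2 fold change 0.13, 95% interval -0.12 to 0.38; limma, adjusted p = 0.556). Junb, which encodes a weaker activator than JUN, had 235.79, 233.93 and 231.57 TPM in controls against 223.83, 234.74 and 220.68 TPM with CXCL3 (-0.046, 95% interval -0.18 to 0.091; adjusted p = 0.699). Jund, the JUN gene most active in resting cells, had 155.67, 191.81 and 185.33 TPM in controls against 168.61, 171.21 and 168.21 TPM with CXCL3 (-0.063, 95% interval -0.27 to 0.14; adjusted p = 0.728). In Jun control 1 was the highest library and in Jund the lowest, while the summed level of the family was 505.2 ± 4.84 TPM in controls and 498.1 ± 10.9 TPM with CXCL3. Jun overlaps the antisense gene Junos (mean 7.11 TPM), Junb the opposite-strand gene Prdx2 (334.3 TPM) and Fosl1 the opposite-strand gene Ccdc85b (44.5 TPM). No source used here states that strand was used in counting, so reads in the overlaps may belong to either gene.

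**Figure D3:**
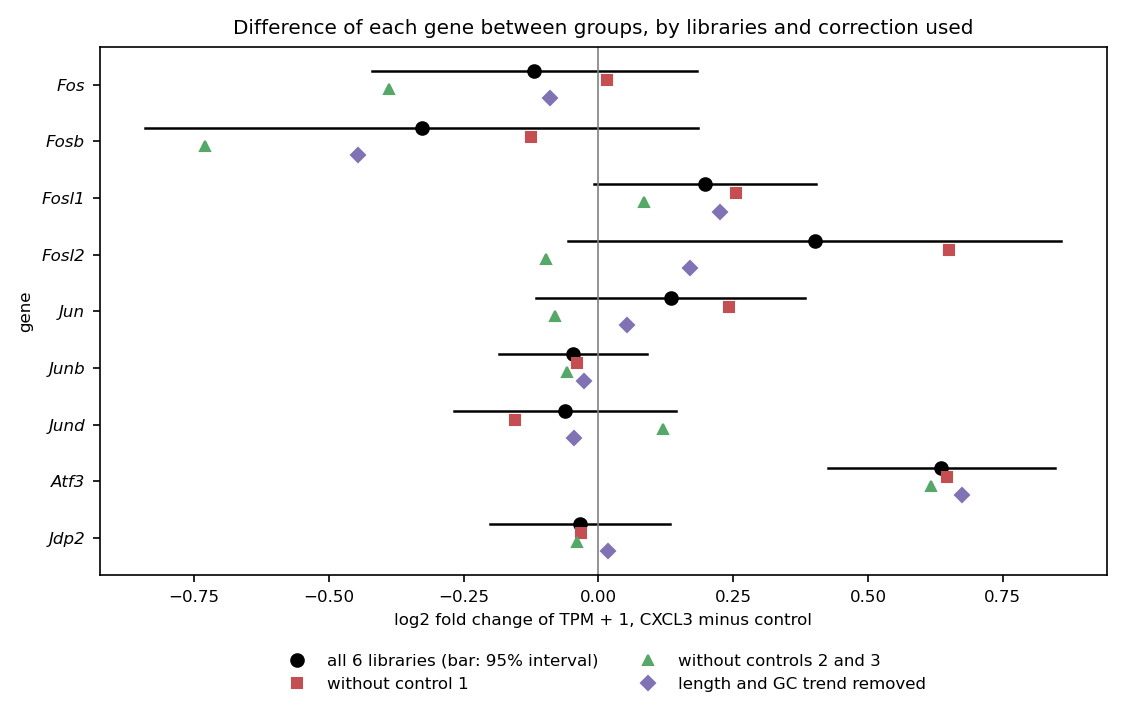
Log2 fold change of TPM + 1, CXCL3 minus control, for the 9 genes tested, from all 6 libraries (circles, with 95% intervals from limma), without control 1, without controls 2 and 3, and with each library's length and GC trend removed. Atf3 stays between 0.62 and 0.67 in all 4, whereas Fosl2 runs from -0.098 to 0.65 and Jund from -0.15 to 0.12.

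Leaving out libraries moved the count of AP-1 genes past the threshold with that of all genes. Without control 1, 5 of the 9 passed, where 32.4% of all genes did: Atf3, Fosl1 (0.25, limma, adjusted p = 0.0391), Fosl2 and Jun (0.24, 0.0385) were higher and Jund lower (-0.15, 0.0447). Without controls 2 and 3 Atf3 alone passed (0.639% of all genes), and the signs of Fosl2, Jun (-0.081) and Jund (0.12) turned. In that fit control 1 is the only control and is assumed to vary like the CXCL3 libraries. With library weights 2 passed, Atf3 and Fosl2 (11% of all genes), and with the length and GC trend removed Atf3 alone (0.342%).

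The genes with a profile most like that of Atf3 over the 6 libraries, by the root mean square distance of centred log2(TPM + 1) among 9843 genes with a mean of at least 5 TPM, were Upp1, Nqo1, Cd24a, Il1rn and Sprr2h, in this order. The distance ran from 0.038 for Upp1 to 0.076 for Sprr2h. Upp1, which encodes uridine phosphorylase, had 42.63, 36.27 and 42.99 TPM in controls against 65.07, 61.77 and 64.15 TPM with CXCL3. Cd24a, of a small glycoprotein of the cell surface, had 15.5, 14.65 and 18 TPM in controls against 25.32, 25.56 and 24.42 TPM with CXCL3. Sprr2h belongs to a cluster of similar genes for small proline-rich proteins, so its reads may be shared with its paralogs. Since the 5 were chosen for their likeness to Atf3, their shared order of libraries follows from the choice.

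**Figure D4:**
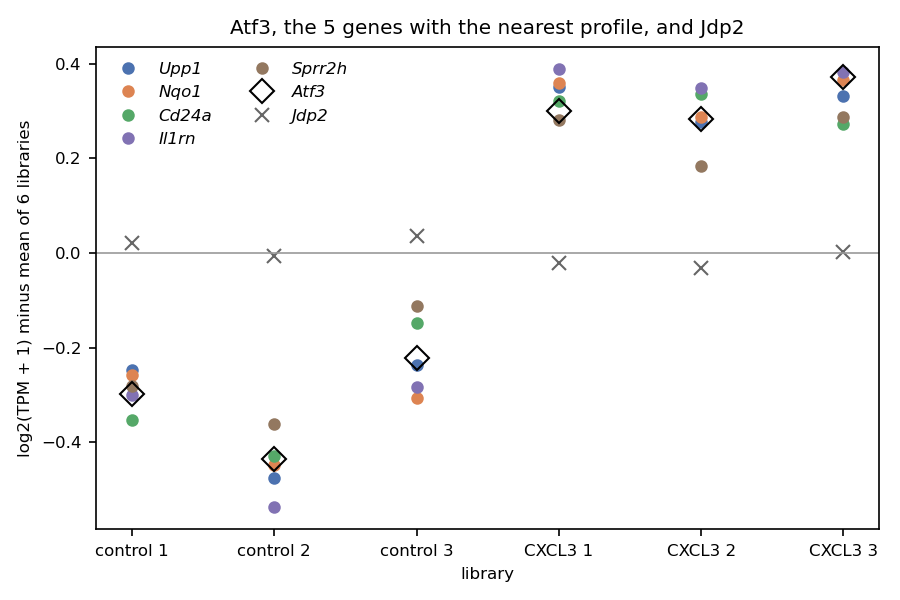
Log2(TPM + 1) minus its mean over the 6 libraries, for Atf3 (open diamonds), the 5 genes nearest to it and Jdp2 (crosses). Atf3 and the 5 genes lie below 0 in the 3 controls and above 0 in the 3 CXCL3 libraries, and Jdp2 stays near 0.

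Other genes around AP-1 were taken from lists drawn up with earlier results of these data known. For that reason nothing is read from the shares of these lists that passed or did not overlap. Over all genes, 2 of the genes in the lists passed. Of 30 AP-1 target genes tested, 2 passed higher and 0 lower, beside 0.0304% and 0.129% of all genes. These were Nqo1, a quinone reductase gene (138.18, 120.95 and 133.56 TPM in controls; 212.28, 201.99 and 213.33 TPM with CXCL3; limma, adjusted p = 0.0293), and Il1rn, the gene of the interleukin-1 receptor antagonist (55.38, 46.83 and 56.01 TPM in controls; with CXCL3 89.87, 87.36 and 89.49 TPM; adjusted p = 0.0419). The log2 fold change was 0.67 for Nqo1 and 0.75 for Il1rn. Both calls were lost without control 3 (adjusted p = 0.129 each), without any 1 CXCL3 library (0.175 to 0.288), with no filter (0.107 and 0.115), with median-of-ratios scaling (0.0924 each) and with eBayes without trend (0.129 each), and that of Il1rn with the replicate block (0.0581). The groups did not overlap for 8 higher and 4 lower targets of the 30 (7.92% and 9.31% of all genes tested), and the median log2 fold change of the list was 0.070. The targets thus lay on both sides of 0. Without control 1, 11 of the list passed higher and 6 lower (25.2% and 7.17% of all genes).

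Of 26 other immediate early genes tested with limma, 0 passed (6 had an unadjusted p under 0.05, the level that 11.6% of all genes reached), and the groups did not overlap for 5 higher and 5 lower (7.92% and 9.31% of all genes tested). The 2 with the smallest p were Egr3 (1.31 ± 0.589 and 2.91 ± 0.697 TPM; limma, adjusted p = 0.302) and the nuclear receptor gene Nr4a1 (18.4 ± 1.18 and 22.8 ± 1.71 TPM; 0.371). Of 29 other basic leucine zipper genes tested, 0 passed (3 at an unadjusted p under 0.05), and 3 higher and 2 lower had groups that did not overlap (17.2% of all genes tested in either direction). Among these Cebpb, which encodes a C/EBP protein, had 137.3, 125.31 and 167.29 TPM in controls against 248.32, 216.19 and 189.16 TPM with CXCL3 (log2 fold change 0.60 ± 0.13; limma, adjusted p = 0.196). The lowest CXCL3 library was above the highest control, but each group spread widely. Creb1, of a factor that reads the CRE, was at 13.08 TPM in control 1, within the CXCL3 range of 12.75 to 14.76 TPM, and at 5.79 and 7.03 TPM in controls 2 and 3 (adjusted p = 0.406).

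Among 22 genes of the integrated stress response, a pathway known to induce Atf3, 0 passed with limma (3 at an unadjusted p under 0.05). That unadjusted level was reached by 11.6% of all genes, the share to set beside the lists below as well. The groups did not overlap for 1 higher gene, Cebpb, and 5 lower (7.92% and 9.31% of all genes tested). Gadd45a, a stress-induced growth arrest gene, was lower, at 174.75, 178.47 and 158.79 TPM in controls and 142.25, 143.66 and 147.4 TPM with CXCL3 (log2 fold change -0.24 ± 0.07; limma, adjusted p = 0.302). The median of the list was 0.059, where that of all genes tested was 0.070. Of 23 MAP kinases and their kinases 0 passed (1 at an unadjusted p under 0.05), with a median of 0.12. The groups overlapped for all of them (17.2% of all genes tested did not overlap, in either direction). Rps6ka3 (15.9 ± 4.76 and 22.1 ± 2.13 TPM, adjusted p = 0.422) and Map3k4 (3.90 ± 1.09 and 5.18 ± 0.111 TPM, 0.457) had the smallest p. Of 8 genes of SRF and its partners 0 passed (1 at an unadjusted p under 0.05), with a median of 0.23. The groups did not overlap for 1 higher gene, Elk3, and 0 lower. Elk3, of a ternary complex factor, was at 59.1 ± 7.89 and 72.2 ± 2.70 TPM (limma, adjusted p = 0.375) and Mrtfb at 5.83 ± 2.45 and 8.27 ± 0.901 TPM (0.457). Of 17 genes for turnover and partners of AP-1 proteins 0 passed (2 at an unadjusted p under 0.05), with a median of 0.21, led by the coactivator gene Ncoa1 (4.63 ± 2.33 and 8.0 ± 0.07 TPM; adjusted p = 0.378) and Runx2 (8.45 ± 3.19 and 12.5 ± 1.88 TPM; 0.426). Here too the groups did not overlap for 1 higher gene, Ncoa1, and 0 lower. Control 1 lay within the CXCL3 range for Rps6ka3, Map3k4, Mrtfb and Runx2 (21.23, 5.16, 8.66 and 12.06 TPM). For Elk3 and Ncoa1 (67.7 and 7.19 TPM) it lay between that range and the lower controls 2 and 3. Without control 1 between 6 and 10 genes passed higher and between 0 and 2 lower in each of these 6 lists (25.2% and 7.17% of all genes), and with the length and GC trend removed 0 passed.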

How the data were processed

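The authors deposited 1 table of TPM per gene, with a column for each of 6 libraries. According to the submitters' processing notes the tools were fastp, HISAT and RSEM on the build GRCm38.p5. Their versions, the annotation, any filter and the strand setting are not given in the sources. TPM keeps no depth, so depth is unknown and precision was judged from the spread between libraries. The columns sum to 984281 to 986705 TPM. Per the labels' protocols, RNA was extracted with TRIzol and treated with DNase.

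Symbols, positions and transcript lengths came from GENCODE M21 (51633 of 51912 identifiers matched). The 13139 genes that reached 1 TPM in 3 or more libraries entered limma 3.58.1 (R 4.3.3; lmFit, eBayes with trend) as log2(TPM + 1). The test was two-sided for CXCL3 minus control, p-values were adjusted by Benjamini-Hochberg over these genes, and the threshold was 0.05. A fold change on this scale understates that of low genes. The exact permutation test was not used, since its smallest p for groups of 3 is 0.1. On simulated data of 13139 genes the fit called 33.1% of genes changed 1.5-fold and 67.8% of those changed 2-fold. It also called a mean of 7 unchanged genes per run. The simulated noise was independent between genes, without the shared departure of controls 2 and 3. Changes were put only into genes above a minimum mean level. The rates may thus differ from those in the real data.

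Alternatives were pseudocounts of 0.1 and 5, filtering at 5 TPM or not at all, quantile and median-of-ratios scaling, loess removal of each library's length and GC trend, eBayes without trend, library weights (arrayWeights), a replicate block, and leaving out each library or controls 2 and 3.

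The members and lists were chosen with earlier results of these data known. Named were all members, the genes past the threshold and the 2 with the smallest p in each list, and the 5 genes nearest to Atf3. The cell type markers and overlapping genes named were chosen after their values were seen. Promoter sequences are from RefSeq (GRCm38.p6).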

Additional observations from a re-analysis of the deposited data

How the results depend on the processing

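The count of all genes past the threshold was 21, and that of AP-1 genes 0. With no filter limma called 0 genes (1928 had an unadjusted p under 0.05), with median-of-ratios scaling 5, with the length and GC trend removed 45, with eBayes without trend 1, with library weights 1446 and without controls 2 and 3 84. The count of AP-1 genes was 1 with the length and GC trend removed, 2 with library weights and 1 without controls 2 and 3. Leaving out 1 library gave 0 to 4254 genes and 0 to 5 AP-1 genes. These counts came without control 3, CXCL3 library 1 or CXCL3 library 2 (0 genes; 875, 765 and 799 at an unadjusted p under 0.05), CXCL3 library 3 (1) or control 2 (10), and without control 1 (4254). The replicate number as a block gave 12 genes and 0 AP-1 genes. Same-numbered libraries deviated together with correlations of 0.122, -0.011 and 0.077, so the number was not taken to pair them.

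Atf3, Fosb and Fosl1 kept their sign in all 17 settings. The sign turned for Junb with quantile normalization (0.013), for Jdp2 with the length and GC trend removed (0.017), for Fos without control 1 (0.016; -0.24 to 0.016 over the libraries left out in turn), and without controls 2 and 3 for Fosl2 (-0.098), Jun (-0.081) and Jund (0.12). The cause was not tested. The family shares moved by less than 1 SD when 1 library was left out, which holds for any 3 values. Removal of the length and GC trend, chosen for the shares after seeing the data, moved the mean share of Fosl2 from 35.3% to 37.3% in controls and from 41.3% to 39.1% with CXCL3, and that of Fos from 28.8% to 27.8% and from 23.4% to 24.3%. It moved that of Fosl1 from 32.55% to 31.4% in controls and from 33.0% to 34.3% with CXCL3, and the Fosl1 groups no longer overlapped.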
